A study of Rattus norvegicus with 32 samples.

Results

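The genes described here are the ligands and receptors that steer growing axons: semaphorins, Slits, ephrins and netrins, and the plexins, neuropilins, Robo, Eph, Dcc and Unc5 receptors that read them, with the adhesion molecule L1cam. They were taken by gene symbol from a rat CodeLink array, which gave 55 genes measured by 89 probes, of 12573 named genes on 33849 probes. By role, 28 were ligands and 26 were receptors, with L1cam, a co-receptor of the neuropilins, counted among the receptors. The last gene, Unc50, was taken by its name only and has no guidance role.

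RNA came from CA3 pyramidal neurons of the hippocampus, collected by laser capture from Sprague-Dawley rats with fluid percussion traumatic brain injury (TBI) or sham injury. The 8 groups were sham, TBI, TBI with metyrapone (TBI+MT, 100 mg/kg) and TBI with carbenoxolone (TBI+CB, 30 mg/kg), each at 4 and 24 h. Metyrapone blocks the last step of corticosterone synthesis, and carbenoxolone inhibits 11-beta-hydroxysteroid dehydrogenases, which interconvert active and inactive glucocorticoids. Per the labels, drugs or saline were given under the skin 90 min before injury, and the sham rats at 4 h are called untreated, whereas the methods of the study give sham rats saline and a shorter interval before injury. Times count from treatment by the labels and from surgery by the methods. Neurons were chosen in the study because Fluoro-Jade, a stain of dying neurons, did not mark them, so each group describes the neurons that remained. Each group held 2 samples, each pooled from 3 to 6 rats and hybridized to duplicate arrays that were averaged here. The p-values therefore measure the spread between pooled samples, and fewer cells of a type cannot be told apart from less RNA per cell.

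In development, semaphorins repel or attract axons through plexins, with neuropilins as co-receptors of the secreted class 3 members. Slits repel through Robo receptors, netrins attract through Dcc and repel through Unc5 receptors, and ephrins and Eph receptors signal in both directions between touching cells. In the adult hippocampus many of these proteins stay in use at synapses, where semaphorins and Eph receptors shape dendritic spines and mossy fiber contacts onto CA3 neurons.

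Promoter sequences were held for 44 of the 55 genes (29 of the 36 that passed the filter on dim probes described below), as windows from 250 bases before to 50 bases after the transcription start in RefSeq on the GRCr8 build. No window was held for Sema3f, L1cam or Slit1. Of the windows held, 4 were picked from genes named in the results below, Ephb6 also for its glucocorticoid receptor motif. They do not include Sema6b, which holds that motif too. The 4 shown are Ntn5 at chr1:105293158-105293457 on the plus strand, Sema4b at chr1:143558547-143558846 on the plus strand, Ephb2 at chr5:154360375-154360674 on the minus strand and Ephb6 at chr4:71458382-71458681 on the plus strand. Capitals mark matches on either strand to 5 short motifs, each spelled out with its count in the next paragraph: those bound by the glucocorticoid receptor, the core of the cAMP response element, an E-box, a GC box and a TATA box. Ephb2 holds none of them.
Ntn5: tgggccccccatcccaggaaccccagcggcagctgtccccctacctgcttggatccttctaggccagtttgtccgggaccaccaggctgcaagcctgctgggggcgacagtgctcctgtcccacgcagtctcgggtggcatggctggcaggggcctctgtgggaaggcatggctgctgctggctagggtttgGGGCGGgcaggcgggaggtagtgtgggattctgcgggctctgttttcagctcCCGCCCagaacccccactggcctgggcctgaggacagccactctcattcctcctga
Sema4b: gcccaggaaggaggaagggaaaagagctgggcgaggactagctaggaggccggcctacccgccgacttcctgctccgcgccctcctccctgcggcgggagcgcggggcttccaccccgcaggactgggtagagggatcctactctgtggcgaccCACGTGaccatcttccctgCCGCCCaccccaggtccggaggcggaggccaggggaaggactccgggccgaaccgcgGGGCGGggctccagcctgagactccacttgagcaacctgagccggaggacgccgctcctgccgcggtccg
Ephb2: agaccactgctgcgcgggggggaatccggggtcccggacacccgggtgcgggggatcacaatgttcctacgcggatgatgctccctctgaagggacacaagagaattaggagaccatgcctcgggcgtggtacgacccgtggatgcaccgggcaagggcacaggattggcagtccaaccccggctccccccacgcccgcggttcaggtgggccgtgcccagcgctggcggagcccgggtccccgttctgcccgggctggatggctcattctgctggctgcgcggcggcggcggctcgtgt
Ephb6: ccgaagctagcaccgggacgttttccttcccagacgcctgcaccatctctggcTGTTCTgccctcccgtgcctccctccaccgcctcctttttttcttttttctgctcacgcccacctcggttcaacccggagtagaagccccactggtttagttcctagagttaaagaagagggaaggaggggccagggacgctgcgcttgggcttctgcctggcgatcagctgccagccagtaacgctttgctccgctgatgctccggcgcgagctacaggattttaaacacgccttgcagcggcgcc

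The glucocorticoid receptor motif AGAACA was present in 2 of the 45 promoters of these genes (4.44%), those of Ephb6 and Sema6b, and in 20.7% of all 33465 promoters of the same length. The GC box, GGGCGG, was in 22 of 45 (48.9%, against 33.1% of all), among them Ntn5 and Sema4b, which hold 2 each. The E-box, CACGTG, was in 5 (11.1%, against 6.42%), including Sema4b, and the cAMP motif TGACGT in 3 (6.67%, against 7.94%). No member promoter held TATAAA, which was in 14.2% of all. The median GC content was 63% in these promoters and 51.7% in all. These matches describe letters in a short window and carry no evidence of binding.

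The arrays differed in how many probes stood above background by the flags of the scanner software, from 26.1% to 65.9% of probes. The dimmest samples were TBI+MT at 24 h replicate 1 (27.4%) and TBI+CB at 24 h replicate 2 (30.1%), where 20.5 and 23.5 of the 36 genes tested here were above background on average over the duplicate arrays, against 27.5 to 36 in the other 14 samples. Across probes, r was 0.900 to 0.997 for duplicate arrays and 0.733 to 0.943 for both samples of a group. Slide numbers fell into 3 runs, which were treated as assumed batches. The first held both sham samples and TBI replicate 1 at 4 h, the second the remaining 4 h samples together with the 24 h sham and TBI samples, and the last the drug groups at 24 h, so that drug and run cannot be told apart at 24 h. Of 5 markers of pyramidal neurons on the array, 3 or 4 were above background on all arrays of each group, with Neurod2 near background on all arrays of 5 groups and Bcl11b on those of 1, and the neuronal marker Snap25 was near background in all 8 groups. The summed level of the pyramidal markers was 85.4 times the array median in TBI+CB at 24 h replicate 2 and 149 to 308 in the other samples. Markers of other cells were also measured: 7 microglial markers summed to 25.5 to 145 in the 4 h samples, 35.6 and 65.7 in sham at 24 h and 111 to 167 in the other groups at 24 h, and 7 astrocyte markers summed to 105 to 635. Interneuron markers summed to 66.6 to 137, oligodendrocyte markers to 79.8 to 258, endothelial and pericyte markers to 24.2 to 83.4, and Alas2, of red cells, lay between 0.395 and 8.67. The part of any of these in the results below was not tested.

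Members of every family were above background in some group. Testing required that some group had the probe above background on each of its 4 arrays, a filter that 36 of the 55 genes met, 17 of 28 ligands and 18 of 26 receptors, together with Unc50. On all 32 arrays, 16 genes were above background, 6 ligands and 9 receptors with Unc50. The ligands were Sema3e, Sema4a, Sema5b, Sema6b, Sema6c and Efnb1, and the receptors were Plxna2, Nrp1, Epha4, Ephb1, Ephb2, Ephb6, Robo1, Unc5c and L1cam. Among semaphorins, the transmembrane class 6 members Sema6a to Sema6d all passed, and of the class 3 members Sema3e, Sema3f and Sema3g passed, while Sema3a, Sema3b, Sema3c and Sema3d did not. The probe of Ntn1, the founding netrin, was above background on 1 of 32 arrays and that of its attractive receptor Dcc on none. That of the repulsive netrin receptor Unc5c was above background on all 32. A probe near background does not show that a transcript is absent: that of the neuronal marker Snap25 was above background on 0 arrays. These detections therefore do not compare levels between genes. Ntn1 lay between 0.1 (the floor) and 0.789 times the array median and Dcc between 0.124 and 1.08. Sema3a, a repellent that acts through Nrp1, was above background on 5 arrays and lay between 0.154 and 0.986. A gene that passed through only 1 or 2 bright groups, Sema3f, Ntn5 and Sema4b among them, was chosen for being high there. Counts over the 36 genes carry that choice with them.

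**Figure D1:**
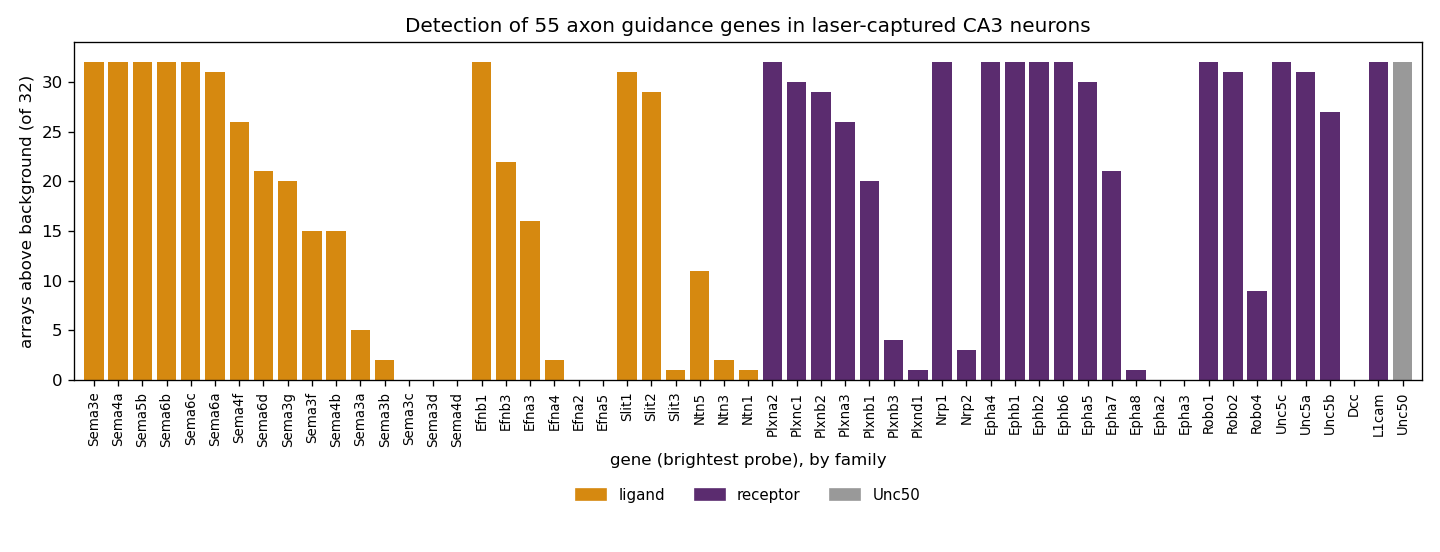
Number of the 32 arrays on which the brightest probe of each of the 55 genes was above background, with ligands in orange, receptors in purple and Unc50 in grey, ordered by family. Bars at 32 mark the 16 genes detected everywhere, and Dcc, Epha2, Epha3, Efna2, Efna5, Sema3c, Sema3d and Sema4d stand at 0.

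No guidance gene passed the test in any of the 8 comparisons at an adjusted p of 0.05, and neither did any other probe. The test was limma across all probes that passed, with Benjamini-Hochberg adjustment. The fold changes below are therefore measurements with their standard errors, and not calls. Where samples are said not to overlap, this is a description only. With so few samples in a group such separation can often arise by chance, and its share among all probes was not counted. Levels are multiples of the median intensity of the array, fold changes are on the log2 scale, and intensities of different probes were not set against each other.

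TBI was compared with sham at 4 h to see what injury does early in the neurons that remain. Among ligands, Sema3f and Ntn5 were lower after injury than in sham, and among receptors Plxnc1, Plxna2 and L1cam were higher. Sema3f, a repellent read by Nrp2 and plexin A receptors and known for restricting hippocampal spines, was at 2.76 and 8.29 in the sham samples and at 0.165 and 0.431 in the TBI samples. All 4 sham arrays were above background and no TBI array was, so Sema3f was at least 7.97-fold lower (fitted log2 fold change -4.17, SE 1.07, adjusted p = 0.846). Ntn5, a netrin family member, was at 2.59 and 2.53 in sham and at 0.362 and 0.580 after TBI, where no array was above background. It was at least 4.11-fold lower (log2 -2.48, SE 0.67, adjusted p = 0.904). For both genes the sham and TBI samples did not overlap, and within the first slide run, which held both sham samples and 1 TBI sample, the fitted log2 differences, which rest on the same dim TBI values, were -4.86 for Sema3f and -2.82 for Ntn5. Sema4b, a transmembrane semaphorin, was at 0.472 and 0.920 in sham, near background, and at 0.706 and 2.45 after TBI, with samples that overlapped (adjusted p = 0.936). By the group means Sema4b was at least 1.62-fold higher, which rested on TBI replicate 2: within the first slide run, which holds replicate 1, the fitted log2 difference was 0.10.

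The receptors with the smallest p were all higher after injury at 4 h. Plxnc1, a plexin that binds the semaphorin Sema7a, was at 3.92 and 8.81 in sham and at 10.8 and 18.4 after TBI (log2 1.26, SE 0.84, adjusted p = 0.936). Its second probe gave a log2 fold change of 0.21. Plxna2, a receptor of class 6 semaphorins in mossy fiber targeting, was at 7.02 and 10.1 against 11.5 and 18.3 (log2 0.79, SE 0.58, adjusted p = 0.936). L1cam was at 44.3 and 45.8 in sham and at 80.0 and 121.5 after TBI (log2 1.13, SE 0.84, adjusted p = 0.936). In none of these 3 receptors did the groups overlap, and the share of all probes without overlap was not counted. Within the first slide run the log2 differences were 0.88 for Plxnc1, 0.45 for Plxna2 and 0.83 for L1cam. All 5 plexins that passed had higher values after TBI, with log2 fold changes from 0.38 to 1.26, and all 5 kept that sign under quantile normalization and with slide run as a blocking term. Sham and TBI samples overlapped for Plxnb1 (2.60 and 7.19 against 6.74 and 4.67) and Plxna3 (1.40 and 2.35 against 2.18 and 2.98). The share of all probes with higher values was not counted. Of the markers of other cells, 5 of 6 astrocyte markers were also higher (median 0.60) and 5 of 7 microglial markers lower (median -0.44), and their part was not tested. Over the 36 genes, 25 were higher and 11 lower, 5 were over 2-fold higher (13.9%, against 15.9% of all probes) and 3 over 2-fold lower (8.33%, against 7.35%). An unadjusted p under 0.05 was reached by 2 genes, Sema3f and Ntn5, against 3.34% of all probes, and the adjusted threshold by 0% of all probes. Sema3f passed the filter only through sham at 4 h and TBI+CB at 24 h, and Ntn5 only through sham and TBI+MT at 4 h. Their contrasts with sham at 4 h thus use a group that let them pass, and the count of 2 is no support. The median of all probes was itself higher by 0.33 at 4 h and that of the guidance genes by 0.33. Under quantile normalization the share of higher values among probes over 2-fold went from 68.4% to 40.8%, and the guidance genes gave 1 over 2-fold higher and 4 lower. With slide run as a blocking term they gave 1 over 2-fold higher and 3 lower. The shares of all probes over 2-fold higher and lower were counted in neither of these fits.

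Both drugs were compared with TBI at 4 h. Among receptors the plexins had lower values with either drug, by amounts from near 0 to over 2-fold, and Ntn5 was higher with metyrapone. Ntn5 was at 2.13 and 0.949 in TBI+MT, with all 4 arrays above background, and at 0.896 and 0.488 in TBI+CB, with 1 array above background. Against TBI it was at least 2.29-fold higher with metyrapone (log2 1.63, SE 0.67, adjusted p = 0.736), with fitted values of 1.29 within the second slide run and 1.05 without TBI+MT replicate 1. With carbenoxolone, where 3 of 4 arrays were not above background either, no size is given. Slit1, a secreted repellent of Robo-bearing axons, was at 2.50 and 2.67 in TBI, 5.21 and 3.51 in TBI+MT and 2.91 and 2.48 in TBI+CB (TBI+MT log2 0.73, SE 0.47, adjusted p = 0.736). Slit2, its relative, varied more, with 13.1 and 28.7 in TBI, 2.61 and 12.4 in TBI+MT and 8.48 and 8.90 in TBI+CB. Its log2 fold changes were -1.77 (SE 1.28, adjusted p = 0.736) with metyrapone and -1.16 (SE 1.28, adjusted p = 0.957) with carbenoxolone. Samples of both drug groups lay below those of TBI for Slit2.

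Plxnc1 was at 2.72 and 8.64 with metyrapone and at 2.81 and 7.13 with carbenoxolone, all 4 below both TBI samples. The log2 fold changes were -1.54 (SE 0.84, adjusted p = 0.736) and -1.66 (SE 0.84, adjusted p = 0.957). The second Plxnc1 probe gave -0.65 and 0.11, so its sign differed with carbenoxolone. Plxnb1, a receptor of the semaphorin Sema4d that acts on RhoA, was at 6.74 and 4.67 in TBI, at 0.365 and 2.23 in TBI+MT and at 0.476 and 7.51 in TBI+CB. In each drug group Plxnb1 was near background on 2 of 4 arrays, so the sizes rest in part on dim spots. Its log2 fold changes were -2.64 (SE 1.22, adjusted p = 0.736) and -1.57 (SE 1.22, adjusted p = 0.957), and the second probe gave -0.92 and -0.86. The carbenoxolone value rested on replicate 1, and without it the log2 fold change was 0.42. Plxna2 was at 5.07 and 10.9 in TBI+MT (log2 -0.97, SE 0.58, adjusted p = 0.736), and L1cam was at 48.5 and 49.2 in TBI+CB (log2 -1.01, SE 0.84, adjusted p = 0.957). In TBI+MT L1cam was at 30.6 and 81.0, which overlapped TBI.

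All 5 plexins had lower values with each drug at 4 h, from -2.64 to -0.04 with metyrapone and from -1.66 to -0.03 with carbenoxolone. The share of all probes with lower values was not counted. With either drug 4 of 5 were lower under quantile normalization, and 4 of 5 with carbenoxolone when slide run was a blocking term. Markers of other cells were mostly lower as well: with metyrapone 6 of 6 astrocyte markers (median -1.26) and 5 of 6 interneuron markers (-1.26), and with carbenoxolone 5 of 6 of each (-0.59 and -0.85). Microglial markers were lower in 6 of 7 (-0.57) and 4 of 7 (-0.07), oligodendrocyte in 4 of 6 (-0.36 and -0.09) and endothelial in 4 of 7 (-0.21 and -0.10). Of pyramidal markers, 3 of 4 were lower with metyrapone (-0.17, the highest at 2.5) and 4 of 4 with carbenoxolone (-0.57). Of the general neuronal markers, 2 of 2 were lower with each drug (-1.37 and -0.92), and the part of these in the plexin values was not tested. Both comparisons use the same 2 TBI samples, so this is no independent support for either. The ephrins Efna3 and Efnb3 had the other sign with carbenoxolone. Efna3, a GPI-anchored ligand of EphA receptors, was at 0.638 and 0.752 in TBI and 1.15 and 1.29 in TBI+CB (log2 0.81, SE 0.60, adjusted p = 0.957). It was above background on only 2 of 4 arrays in each of these groups. Efnb3, a transmembrane ligand of EphB receptors and Epha4, was at 1.31 and 1.77 against 2.61 and 1.72, with overlap (log2 0.47, SE 0.51, adjusted p = 0.957). With metyrapone, 17 genes were higher and 19 lower, 1 over 2-fold higher (2.78%, against 8.21% of all probes) and 4 over 2-fold lower (11.1%, against 25.1%). An unadjusted p under 0.05 was reached by Ntn5 alone, against 4.73% of all probes, and the adjusted threshold by 0%. TBI+MT at 4 h is 1 of the 2 groups through which Ntn5 passed the filter. With carbenoxolone, 11 were higher and 25 lower, none over 2-fold higher (against 4.55% of all probes) and 4 over 2-fold lower (11.1%, against 15.9%). No guidance gene had an unadjusted p under 0.05, against 3.44% of all probes, and 0% of all probes passed after adjustment. The median of all probes was lower by these measures too, -0.40 with metyrapone and -0.28 with carbenoxolone. Quantile normalization moved the share of higher values among probes over 2-fold from 24.7% to 49.0% with metyrapone and from 22.2% to 38.2% with carbenoxolone, and gave 3 guidance genes over 2-fold higher and 3 lower, and 0 higher and 2 lower. The shares of all probes over 2-fold higher and lower in that fit were not counted.

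**Figure D2:**
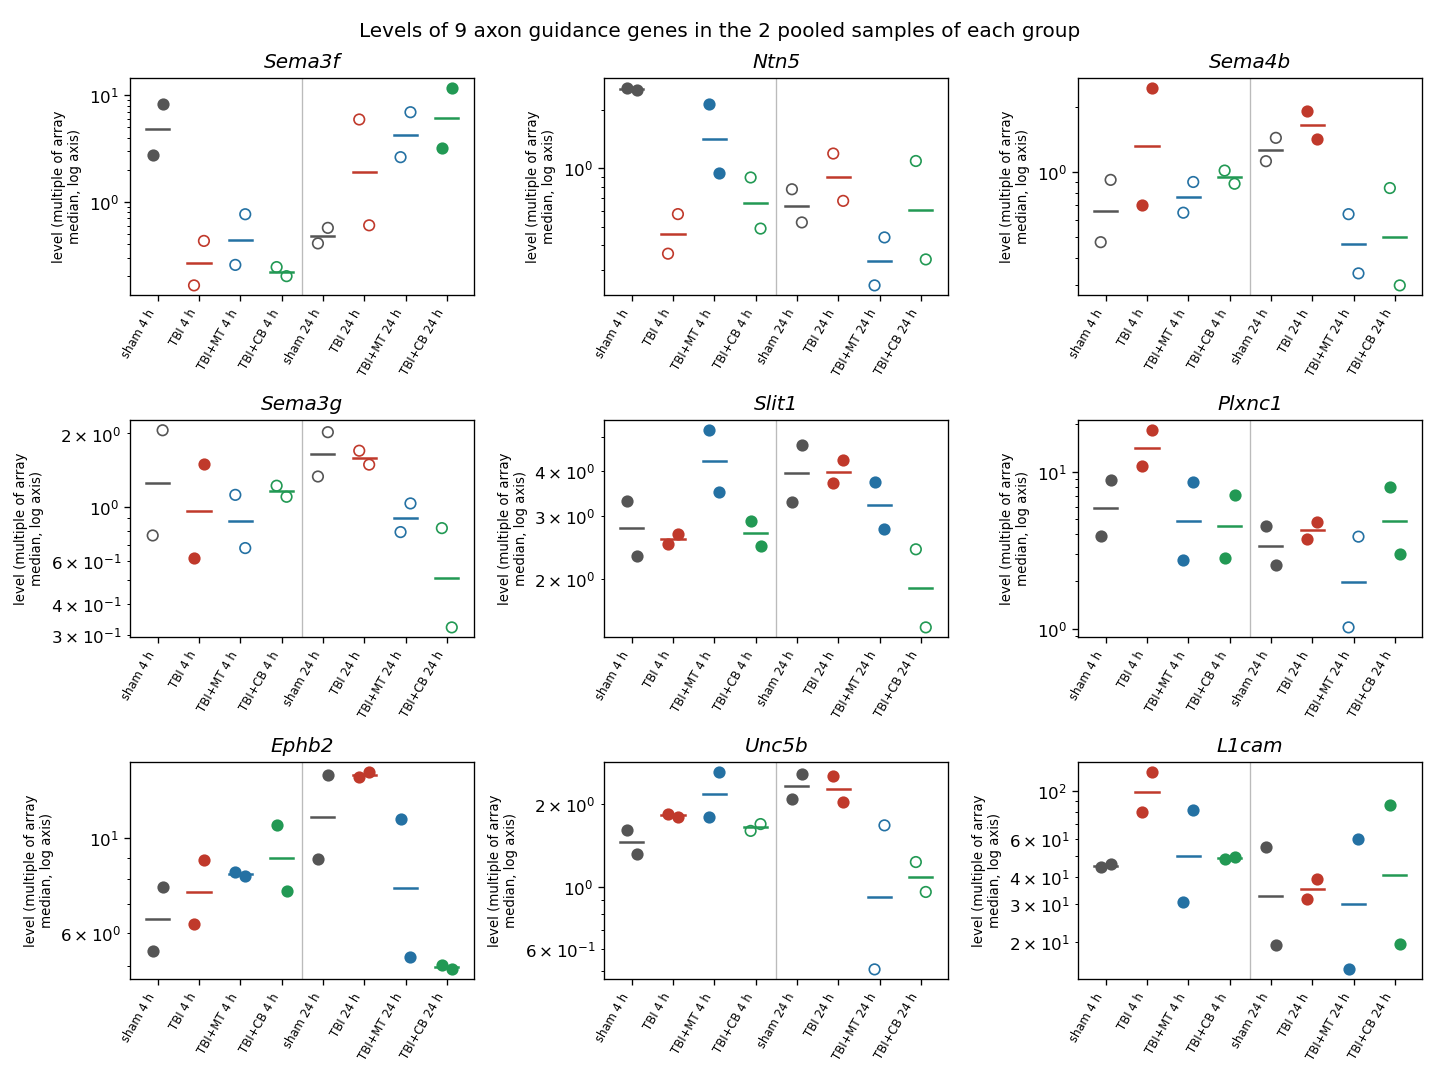
Level of 9 guidance genes in the 2 pooled samples of each group, as multiples of the array median on a log axis, with the geometric mean as a line and filled points where all 4 arrays of the group were above background. Sema3f and Ntn5 stand high in sham at 4 h and low in TBI at 4 h, and Ephb2 stands low in both TBI+CB samples at 24 h.

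TBI was compared with sham at 24 h by the same fit. The semaphorins mostly had higher values after injury, 9 of 11, while 7 of 7 microglial markers were higher (median 1.52, part not tested), and receptors were split evenly, 9 higher and 9 lower. Sema3f was near background in both sham samples at 0.408 and 0.571, and at 5.92 and 0.603 in the TBI samples, of which only the first was above background on its 2 arrays. The difference rested on that TBI sample: without it the fitted log2 fold change was 0.32, and with it 1.97 (SE 1.07, adjusted p = 1). Sema4f was at 1.70 and 0.924 in sham and 2.71 and 1.32 after TBI (log2 0.59, SE 0.61, adjusted p = 1). Sema6c was at 2.89 and 3.51 against 4.09 and 4.44, without overlap (log2 0.42, SE 0.46, adjusted p = 1). Among receptors, Ephb6, an Eph receptor whose kinase domain is inactive, was at 47.1 and 74.5 in sham and 82.7 and 117.3 after TBI (log2 0.73, SE 0.46, adjusted p = 1). Ephb1, a receptor of ephrin-B ligands, was at 33.97 and 14.2 against 6.90 and 14.1, with the TBI samples below sham by a narrow margin (log2 -1.15, SE 0.86, adjusted p = 1). Plxnb2 was at 1.87 and 2.77 against 3.53 and 3.81 (log2 0.69, SE 0.69, adjusted p = 1). Of the 36 genes 22 were higher and 14 lower, 1 over 2-fold higher (2.78%, against 4.09% of all probes) and 1 lower (2.78%, against 6.71%). No guidance gene reached an unadjusted p under 0.05, against 1.84% of all probes, and 0% of all probes passed after adjustment.

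With metyrapone at 24 h, 30 of 36 guidance genes were lower than in TBI, 15 of 17 ligands and 14 of 18 receptors among them. The median of all probes was itself -0.39 and that of the guidance genes -0.51, with 14 of 36 above the median of all probes. The ligands with the smallest p were Sema4b, Ntn5 and Efna3, and the receptors Unc5b, Ephb2 and Plxnb2. Sema4b was at 1.92 and 1.42 in TBI, above background on all 4 arrays, and at 0.637 and 0.338 in TBI+MT, above background on none, which was at least 1.20-fold lower (log2 -1.83, SE 0.69, adjusted p = 0.848). Unc5b, a repulsive netrin receptor, was at 2.51 and 2.03 in TBI and 0.505 and 1.67 in TBI+MT (log2 -1.30, SE 0.55, adjusted p = 0.889), and without the dim replicate 1 of TBI+MT the value was -0.43. Both genes were lower in each TBI+MT sample than in either TBI sample. Ntn5 was near background in both groups, at 1.19 and 0.679 against 0.249 and 0.440, so no fold is given (adjusted p = 0.905). Efna3 was at 1.09 and 1.41 in TBI, above background on 2 of 4 arrays, and at 0.571 and 0.528 in TBI+MT, on none (adjusted p = 0.912). Ephb2, a receptor of ephrin-B ligands at excitatory synapses, was at 13.9 and 14.3 in TBI and 11.1 and 5.25 in TBI+MT (log2 -0.88, SE 0.50, adjusted p = 0.916), with -1.42 without replicate 1 and -0.34 without replicate 2. Plxnb2 was at 0.801 and 3.81 in TBI+MT, which overlapped TBI (log2 -1.07, SE 0.69, adjusted p = 0.916).

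The receptor median with metyrapone at 24 h depended on the dim replicate 1, and the ligand median did not: without that sample the receptor median went from -0.53 to -0.05 and the ligand median from -0.53 to -0.62. Of the 36 genes, 1 was over 2-fold higher (2.78%, against 5.5% of all probes) and 9 over 2-fold lower (25%, against 13.8%). An unadjusted p under 0.05 was reached by 2 genes, Sema4b and Unc5b, against 5.51% of all probes, and the adjusted threshold by 0% of all probes. Sema4b passed the filter only through TBI at 4 and 24 h, where it is high. Without the dim sample of each drug group, 15 genes were higher and 21 lower, with 5 over 2-fold higher and 8 lower, and Plxnb2 had a log2 fold change of 0.05. The shares of all probes in that fit were not counted. Relative to each probe's mean, the median of all probes was -0.77 in the dim replicate 1 and -0.02 in replicate 2.

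With carbenoxolone at 24 h, ligands were lower than in TBI more often than receptors, 13 of 17 against 9 of 18. Both medians depended on single TBI+CB samples. The ligand median went from -0.60 to 0.03 without the dim replicate 2 and to -1.125 without replicate 1. The receptor median went from -0.10 to 0.50 and to -0.82 in the same order. Ephb2 was at 5.05 and 4.92 in TBI+CB, less than both TBI samples (13.9 and 14.3), with all 8 arrays above background (log2 -1.50, SE 0.50, adjusted p = 0.592). Its log2 fold change stayed between -1.56 and -1.44 in the other fits, those without either TBI+CB sample included. Many of those fits cannot move this value, such as those that leave out a sample of another group. Slide run was not entered as a block here, because TBI and TBI+CB at 24 h share no run. Sema3g, a class 3 semaphorin, was at 1.70 and 1.49 in TBI and 0.819 and 0.321 in TBI+CB (log2 -1.63, SE 0.65, adjusted p = 0.592). Sema4b was at 0.843 and 0.297 in TBI+CB (log2 -1.72, SE 0.69, adjusted p = 0.592). Sema3g and Sema4b were each above background on only 2 of 4 TBI+CB arrays. Slit1 was at 3.71 and 4.29 in TBI and 2.42 and 1.47 in TBI+CB (log2 -1.08, SE 0.47, adjusted p = 0.592). Without replicate 2 of TBI+CB the log2 values were -0.96 for Sema3g, -0.97 for Sema4b and -0.72 for Slit1. In these 4 genes the groups did not overlap, but the share of all probes without overlap was not counted. The lower TBI+CB value was that of the dim replicate 2 in each of these genes, by a narrow margin for Ephb2. Unc5b was at 1.23 and 0.961 in TBI+CB (log2 -1.05, SE 0.55, adjusted p = 0.594). Plxna3, a receptor of Sema3f with the neuropilins, was at 2.79 and 2.67 in TBI and 2.67 and 0.570 in TBI+CB (log2 -1.15, SE 0.65, adjusted p = 0.606), and the difference lay in replicate 2, without which the log2 value was -0.03.

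Of the 36 genes with carbenoxolone at 24 h, 14 were higher and 22 lower, 2 over 2-fold higher (5.56%, against 14.3% of all probes) and 9 over 2-fold lower (25%, against 15.2%). An unadjusted p under 0.05 was reached by 4 genes, all lower, against 8.22% of all probes, and the adjusted threshold by 0%. Sema4b, as said above, passed the filter only through the TBI groups. Without the dim sample of each drug group, 23 were higher and 13 lower, 9 over 2-fold higher and 5 lower. The shares of all probes in that fit were not counted. All probes differ between these samples too: relative to each probe's mean, their median was 0.50 in TBI+CB replicate 1 and -0.59 in the dim replicate 2. Sema4b, Unc5b and Ephb2 had lower values than TBI with each drug at 24 h, but both comparisons share the TBI samples, and the drug groups at 24 h share the last slide run. All 7 endothelial and pericyte markers were also lower with each drug (medians -0.83 and -0.96). Of pyramidal markers, 2 of 4 were lower with metyrapone (0.03) and 3 of 4 with carbenoxolone (-0.98). Oligodendrocyte markers were lower in 5 of 6 (-0.55) and 6 of 6 (-0.48), microglial in 6 of 7 (-0.27) and 3 of 7 (0.09). Astrocyte markers were lower in 4 of 6 (-0.28) and 1 of 6 (0.38), interneuron in 4 of 6 (-0.06) and 3 of 6 (0.03). Of neuronal markers, 1 of 2 was lower with metyrapone (-0.16) and 2 of 2 were higher with carbenoxolone (0.95). The part of any of these was not tested.

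The drugs were also set against each other at matched times. No pair of values passed the adjusted threshold, and the standard errors left room for differences of about the sizes measured against TBI. At 4 h, Ntn5 was higher with metyrapone than with carbenoxolone (adjusted p = 0.9995), where only 1 of 4 arrays was above background, so no size is given. Slit1 was also higher with metyrapone (log2 0.67, SE 0.47, adjusted p = 0.9995). Sema3e was lower on average with overlap, at 14.0 and 8.04 against 18.9 and 13.8 (log2 -0.60, SE 0.57, adjusted p = 0.9995). The receptors Ephb6 (0.42, SE 0.46), Nrp1 (0.72, SE 0.81) and Plxnb1 (-1.07, SE 1.22) had the same adjusted p, and the Plxnb1 value took the other sign without 1 sample of either drug group. Of the 36 genes, 1 was over 2-fold higher (2.78%, against 8.25% of all probes) and 1 lower (2.78%, against 5.32%), and none had an unadjusted p under 0.05, against 3.11% of all probes, with 0% of probes after adjustment. At 24 h, Slit1 was higher with metyrapone (log2 0.77, SE 0.47) and Robo1, a main Slit receptor of axons, lower, at 71.8 and 123.8 against 159.4 and 138.1 (-0.65, SE 0.46), without overlap in either gene. Ntn5 and Sema3g were near background on all TBI+MT arrays and overlapped, so no size is given, and Plxnc1 (-1.30, SE 0.84) and Nrp1 (1.14, SE 0.81) overlapped. The adjusted p was 0.786 for each of these 6. Nrp1, the co-receptor that binds Sema3a, was at 50.8 and 6.19 in TBI+CB, and without the second sample its log2 value was -0.38. Of the 36 genes, 1 was over 2-fold higher (2.78%, against 7.25% of all probes) and 4 lower (11.1%, against 22.4%), with no unadjusted p under 0.05, against 5.07% of all probes, and 0% after adjustment.

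Ligands and receptors were then set against each other over the 8 groups, which a scaling factor of an array cannot move. The median log2 fold change of the 18 receptors minus that of the 17 ligands came to 0.04 at 4 h when TBI was set against sham. Against TBI at 4 h it came to -0.43 with metyrapone and -0.20 with carbenoxolone, and to 0.16 between the drugs. The 24 h values were -0.39 after injury, -0.00065 with metyrapone, 0.49 with carbenoxolone and -0.39 between the drugs. The same difference varied between the 2 samples of a group with an SD of 0.41, so the values were of the size of that spread, and the largest, of carbenoxolone at 24 h, was little above it. In single samples, with each gene taken relative to its own mean, it was 0.14 and -0.10 in sham, 0.78 and 0.24 in TBI, -0.26 and 0.33 in TBI+MT and -0.05 and 0.16 in TBI+CB at 4 h. At 24 h it was 0.31 and -0.30 in sham, -0.31 and -0.29 in TBI, -1.17 and 0.08 in TBI+MT and 0.32 and 0.11 in TBI+CB. The samples did not overlap in 4 of the 8 comparisons, which can arise by chance with so few samples in a group. These were TBI against sham and TBI+CB against TBI at 4 h, and TBI+CB against TBI and TBI+MT at 24 h. For TBI against sham at 4 h, where the medians of the fold changes differed by 0.04 only, both TBI samples thus lay above both sham samples. For TBI+CB against TBI at 24 h the ligand median was -0.60 and the receptor median -0.10, with -0.04 for all probes. For TBI against sham at 24 h the ligand median was 0.38 and the receptor median -0.02, with 0.01 for all probes. On the same scale, over the 16 samples, the ligand medians lay between -0.86 and 0.41 and the receptor medians between -1.51 and 0.56. The lowest receptor median was that of TBI+MT at 24 h replicate 1 (-1.51, with -0.34 for ligands and -0.77 for all probes), and replicate 2 of that group was at -0.15 and -0.23. The lowest ligand median was that of TBI+CB at 24 h replicate 2 (-0.86, with -0.75 for receptors), while replicate 1 was at 0.20 and 0.52. Both are the dim samples named above.

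**Figure D3:**
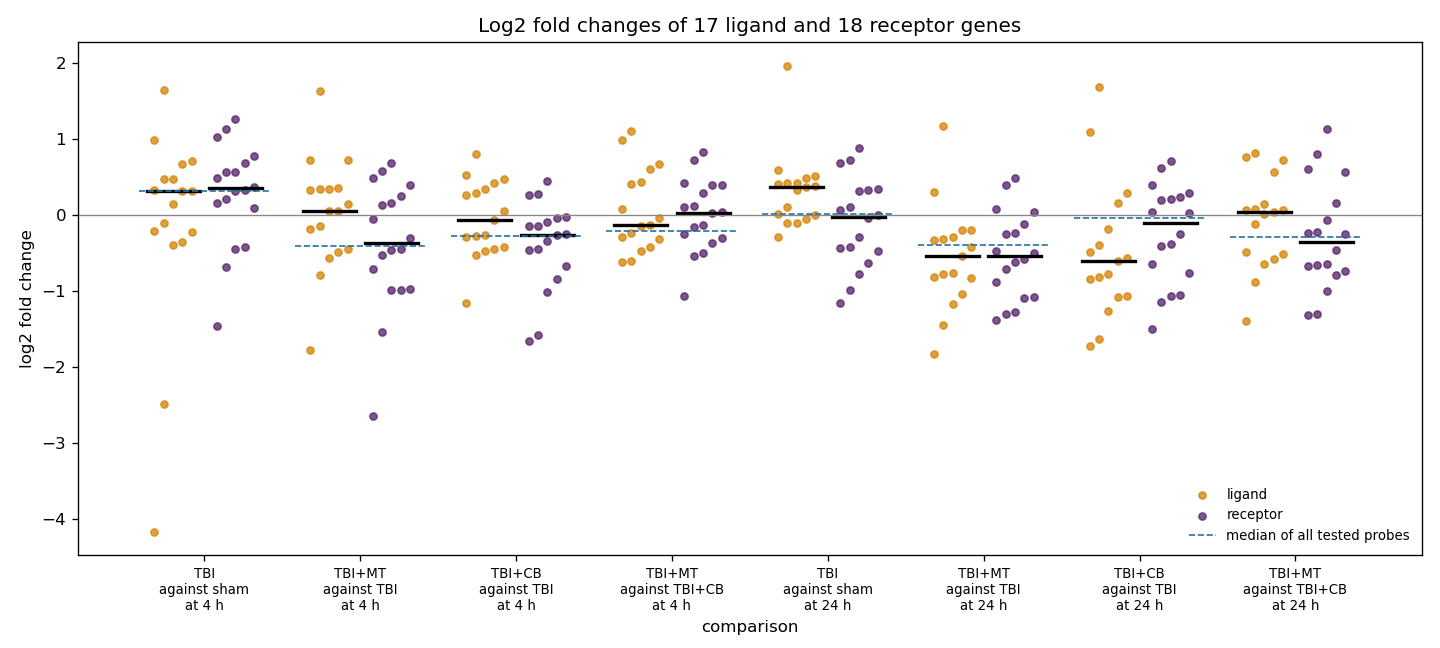
Log2 fold change of the 17 ligand genes (orange) and 18 receptor genes (purple) in each of the 8 comparisons, with black bars at their medians and dashed lines at the median of all tested probes. Ligand and receptor medians lie within 0.49 of each other in each comparison, and the lowest ligand point is Sema3f at a fitted -4.17, with TBI near background.

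**Figure D4:**
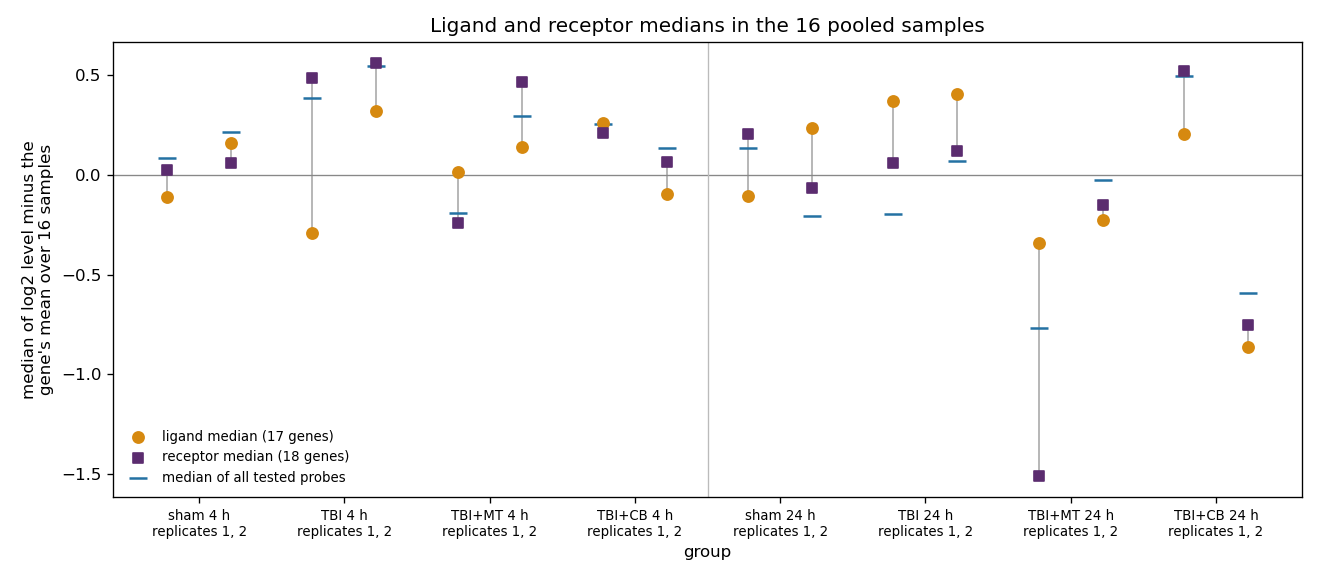
Median over the ligand genes (circles) and receptor genes (squares) of the log2 level relative to each gene's mean over the 16 pooled samples, with the median of all tested probes as a short bar and grey lines joining the values of a sample. TBI+MT at 24 h replicate 1 has the lowest receptor median (-1.51) and TBI+CB at 24 h replicate 2 the lowest ligand median (-0.86).

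The change of a comparison between 4 and 24 h was tested in the same fit. Sema3f and Ntn5 were near background on all arrays of TBI at 4 h and sham at 24 h, and Ntn5 also on those of TBI and TBI+MT at 24 h, so no size or direction is given for them. The sham levels themselves differed, with Sema3f at 2.76 and 8.29 at 4 h and 0.408 and 0.571 at 24 h, and Ntn5 at 2.59 and 2.53 at 4 h and 0.779 and 0.525 at 24 h, on different slide runs. For carbenoxolone against TBI, the difference at 24 h minus that at 4 h was -1.76 for Ephb2 (SE 0.71, adjusted p = 0.574) and -2.07 for Efna3 (SE 0.85, adjusted p = 0.574). The Efna3 value rests on dim spots: 2 of 4 arrays were above background in both TBI groups and TBI+CB at 4 h, and 1 in TBI+CB at 24 h. An unadjusted p under 0.05 was reached by 2, 1 and 2 of the guidance genes for injury, metyrapone and carbenoxolone (Sema3f and Ntn5, Ntn5, and Ephb2 and Efna3), against 2.35%, 4.67% and 7.75% of all probes, and no probe passed after adjustment.

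Several genes are read by more than 1 probe that passed, and their probes did not always give the same sign. In 5 genes, Epha4, Epha5, Nrp1, Plxnb1 and Plxnc1, the log2 fold changes of the probes differed in sign in 16 of 40 pairs of gene and comparison. Epha4, a receptor of both ephrin classes that holds dendritic spines in check, has 4 such probes. In the 2 TBI+MT samples at 24 h they read 33.2 and 191.4, 28.2 and 27.2, 0.471 and 20.0, and 0.904 and 21.9, so that 1 probe was level between the samples and the other 3 were higher in replicate 2. For TBI against sham at 4 h the 4 probes gave log2 fold changes of -0.44, -0.11, 1.30 and 0.00. Epha5 showed the same contrast, with a probe that lay from 1.53 to 43.0 over the 16 samples and a probe that lay from 3.36 to 7.13. The Nrp1 probes agreed in sign except for carbenoxolone at 4 h (-0.03 and 0.54) and metyrapone at 24 h (0.08 and -0.30).

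L1cam, named here because a list the study chose on these samples, which is no independent evidence of a direction, places it under axonal guidance, was above background on all 32 arrays. At 24 h it was at 55.1 and 19.5 in sham, 31.8 and 39.3 in TBI, 15 and 59.7 in TBI+MT and 85.9 and 19.6 in TBI+CB. All 4 groups overlapped, and the samples of sham and of both drug groups were over 2-fold apart. Efnb3 at 24 h was at 1.66 and 1.86 in sham, 1.30 and 1.61 in TBI, 0.983 and 0.743 in TBI+MT and 1.26 and 1.30 in TBI+CB. Robo2 had its higher value in the same sample as L1cam, at 60.7 and 22.3 in sham at 24 h, 10.2 and 35.3 in TBI+MT and 68.4 and 15.5 in TBI+CB.

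Other genes of the pathway were described from lists of intracellular effectors, outgrowth inhibitors and adhesion partners, of which 44 passed (30, 8 and 6). None passed the adjusted test. For TBI against sham at 4 h, 31 were higher and 13 lower, with a median of 0.28 against 0.33 for all probes. For metyrapone and carbenoxolone against TBI at 4 h, 12 and 13 were higher and 32 and 31 lower, with medians of -0.39 and -0.30 against -0.40 and -0.28 for all probes. At 24 h the medians were -0.15 for TBI against sham, -0.25 for metyrapone and 0.07 for carbenoxolone against TBI, where all probes had 0.01, -0.39 and -0.04. An unadjusted p under 0.05 was reached by Dock1 for TBI against sham at 4 h (log2 2.16, adjusted p = 0.936) and, for TBI+CB against TBI at 4 h, by Fes (2.66) and Rasa1 (-2.41, both adjusted p = 0.957). Rasa1 reached it also for TBI+MT against TBI+CB at 4 h (2.77, adjusted p = 0.9995) and TBI+MT against TBI at 24 h (2.56, adjusted p = 0.746). Ntng1 reached it for TBI+MT at 24 h against TBI (-2.25, adjusted p = 0.901) and against TBI+CB (-3.94, adjusted p = 0.786). Dock1 and Rasa1 act on the small GTPases Rac and Ras, Fes is a kinase of the semaphorin response, and Ntng1 is a membrane-bound netrin relative.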

How the data were processed

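Laser-captured CA3 neurons were measured on CodeLink rat arrays after RNA amplification. Per the file headers, the deposited values are spot intensity and intensity divided by the array median, with a flag for spots near background. The authors' processed table was an alternative. From the deposited intensity, each spot was divided by the median of its array, given a floor of 0.1 and log2-transformed. Spots flagged irregular or masked were dropped, and duplicate arrays averaged. Of 33849 probes, 17635 were above background on all 4 arrays of a group and were tested. Symbols came from the platform table (16878 probes with 1 symbol, 182 with several, left unnamed). The brightest probe stood for a gene. The model was fitted with limma (version 3.58.1, R 4.3.3, data.table version 1.17.8) to all 8 groups (16 pooled samples, 8 residual and 3.88 prior degrees of freedom), with Benjamini-Hochberg adjustment and a threshold of 0.05. Where a group was near background on all 4 arrays the fold is given as a bound, set at the lowest signal above background of each array, and a fitted value printed beside it carries no more than that. Counts and medians over genes use fitted values throughout. The step was tested on simulated data.

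Genes named are the 3 ligands and 3 receptors with the smallest p in each comparison, any that passed, 8 well-known members, and those whose probes differ in sign. Robo2, Unc50 and the effectors named were chosen after their values were seen. The members and lists were chosen with earlier results of these data known. Alternatives were normalization, floor, filters, flags, array choice, fit, blocks and samples left out. The number of pooled samples, 2 in each group, limits the precision.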

Additional observations from a re-analysis of the deposited data

How the results depend on the processing

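No guidance gene passed at an adjusted p of 0.05 under any alternative that was run. By an unadjusted p under 0.05 the counts were 2 for TBI against sham and 1 for TBI+MT against TBI at 4 h, and 2 for TBI+MT and 4 for TBI+CB against TBI at 24 h. By the methods' rule, with all 4 arrays of each group within 2-fold of each other and group means over 2-fold apart, they were 3 (Ephb1, L1cam, Unc50), 1 (Unc50, TBI+MT) and 1 (L1cam, TBI+CB) at 4 h, and 1 (Sema5b, TBI+MT) and 1 (Ephb2, TBI+CB) at 24 h. How many of all probes met that rule was not counted, so these counts stand without a share to compare. Unc50 among them has no guidance role. The receptor minus ligand median of TBI+MT against TBI became 0.0052 at 4 h once slide run was entered as a blocking term, and at 24 h 0.41 over probes above background on all 32 arrays and 0.57 without both dim samples. From array a alone it became 0.052 for TBI+CB against TBI and 0.029 for TBI+MT against TBI+CB at 24 h. Leaving out 1 sample moved it from -0.10 to 0.31 for TBI against sham at 4 h, -0.73 to 0.0052 for TBI+MT and -0.70 to -0.11 for TBI+CB against TBI at 4 h, and -0.31 to 0.41 between the drugs at 4 h. At 24 h the ranges were -0.52 to -0.071, -0.44 to 0.57, 0.31 to 0.55 and -1.22 to 0.34 in the same order. Values that changed sign were those of Plxnb1 for TBI+CB against TBI at 4 h (-3.56 to 0.42 without 1 sample) and between the drugs at 4 h (-3.06 to 0.92, and 0.16 from array b alone), Plxnb2 for TBI+MT against TBI at 24 h (-2.20 to 0.053, and 0.053 without both dim samples) and Nrp1 between the drugs at 24 h (-0.38 to 2.66, and -0.43 without both dim samples). The cause was not tested. Where 1 sample remained in a group, it was assumed to vary like the other groups. The replicate numbers did not pair the samples (7 of 28 pairs of groups correlated above 0.1, from -0.565 to 0.558), and the fit with a replicate block called 0 genes in each comparison. As each group holds both numbers, the block cannot move a receptor minus ligand median (0.49 for TBI+CB against TBI at 24 h). Background correction by normexp was not run, because the files used hold no separate spot and background means. Genes near background in a group have only bounds.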
